A study of Bos taurus with 30 samples.

Results

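The let-7 family and miR-98 were examined in calf testis. The members were all rows of the deposited table whose name begins with let-7, together with miR-98, which gave 10 of 1030 miRNAs: let-7a-5p, let-7a-3p, let-7b, let-7c, let-7d, let-7e, let-7f, let-7g, let-7i and miR-98. The rule used names and no measured value. Testis small RNA from 30 bull calves of the Holstein-Friesian breed was sequenced, with 1 library per calf, to ask whether nutrition in early life changes testis miRNAs. From 2 to 12 weeks of age, the 15 calves of the High diet were given daily 1.5 kg of milk replacer made up to 10 L, with free access to concentrate, and were intended to gain 1.0 kg a day. The 15 calves of the Moderate diet were given daily 0.5 kg of milk replacer in 4 L plus 0.5 kg of concentrate, and were intended to gain 0.5 kg a day. The testes of both diets were sampled at 12 weeks of age.

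miRNAs are short RNAs that guide Argonaute proteins to mRNAs, chiefly through a seed near their 5′ end, and lower the translation and stability of those mRNAs. The let-7 family, found as a timing gene of larval development in the nematode, shares 1 seed across its main (5p) arms and miR-98; it is known to repress growth and stem cell genes such as RAS, MYC, HMGA2 and LIN28. LIN28 in turn binds let-7 precursors and blocks their maturation, and in the testis LIN28 proteins are known as markers of undifferentiated spermatogonia. mRNAs were not measured in these libraries.

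Values are the deposited ones, in CPM, reads relative to the size of the library, after edgeR's trimmed-mean scaling (TMM), and are called units here; unless a sentence says otherwise, they are mean ± SD. Reads here, also where all reads or depth are named, are those counted to miRNAs of the deposited table, as recovered from its values. They are not all reads sequenced. Depth ranged from 6.0003 to 19.98 megareads (M reads). Of the libraries, 24 (11 High and 13 Moderate) had 10.3 M reads or fewer, and 6 (4 High and 2 Moderate) had at least 16.7 M reads. The diet is that of the diet label; for 18 of the 30 libraries the title names the opposite diet, and both labels are alike in 12 (6 High, 6 Moderate). Replicates are numbered within a diet. Moderate replicate 5 stands apart: 84.8% of its reads were miR-10b, against 37.0% to 49.0% elsewhere, and its units summed to 4.22e+06 against 815635 to 1111450. Fold changes of the members are given with and without it. Of the markers of the tissue, miR-202, a miRNA of gonadal somatic cells, was at 1055 to 3282 units in every library. miR-34c, known from meiotic and later male germ cells, was at 9.51 to 238 units, and miR-122 of the liver at 0 to 2.84 units. A whole testis was sequenced, so fewer cells of a type and less RNA per cell cannot be told apart.

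Taken from the RefSeq gene table, the family has 12 genes in cattle. let-7a-5p comes from 3 of them, let-7f from 2 and every other 5p member from 1. MIRLET7A-1, MIRLET7F-1 and MIRLET7D lie together, as do MIRLET7A-3 and MIRLET7B. MIRLET7A-2 neighbours the genes of miR-100 and miR-125b, MIRLET7C those of miR-99a and miR-125b, and MIRLET7E those of miR-99b and miR-125a. MIRLET7F-2 and MIR98 both lie within HUWE1, the gene of a ubiquitin ligase, and MIRLET7G lies within WDR82.

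let-7f and let-7a-5p were the main members of the family in calf testis and together made up 65.5% ± 2.09 of its units (SD, n = 30). let-7f held 33.7% ± 1.85 of the pool and let-7a-5p 31.8% ± 1.06. let-7i followed with 13.4% ± 1.41, and these leading members together reached 78.9% ± 0.83. Next came let-7b with 7.04% ± 0.420 and let-7g with 5.54% ± 0.59, which brought the sum of the first 5 to 91.5% ± 0.54. The remaining members were minor. let-7c held 3.52% ± 0.40, miR-98 held 2.41% ± 0.23, let-7e held 1.81% ± 0.18 and let-7d held 0.66% ± 0.09. let-7a-3p, the strand that is usually discarded from the let-7a precursor, held 0.113% ± 0.021. Among all miRNAs of the table, let-7f ranked 9 by mean units, let-7a-5p 11, let-7i 18 and let-7a-3p 150.

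The order of the members was nearly fixed from calf to calf. In the deposited values, all 10 members stood in the same order in 24 of 30 libraries. In 5 libraries (Moderate replicates 1, 12 and 13 and High replicates 9 and 14) let-7a-5p stood above let-7f, and the ratio of let-7f to let-7a-5p ran from 0.879 to 1.22 with a median of 1.05. let-7f was the higher in 25 of 30 libraries. The mean log2 ratio was 0.08 with an SD of 0.10 between libraries (n = 30), and no test was run on it. In Moderate replicate 5, let-7c and miR-98 stood above let-7g. Every other neighbouring pair kept its order in all 30 libraries, although miR-98 was only 1.03 times let-7e at its lowest.

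**Figure D1:**
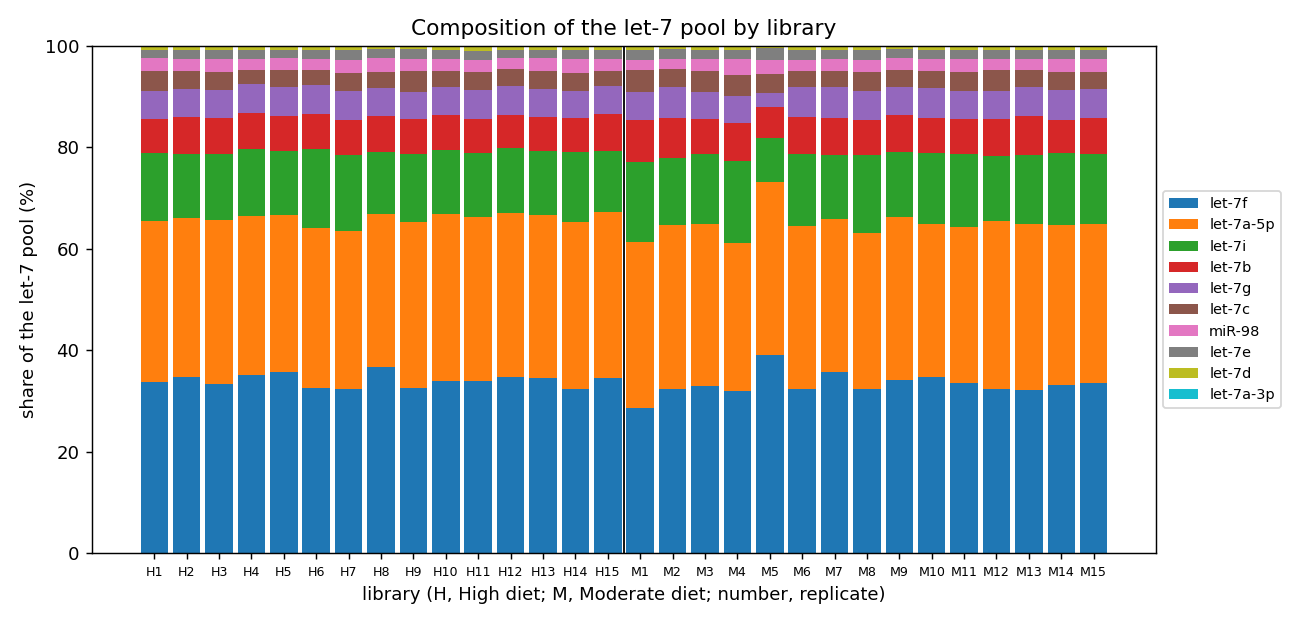
Composition of the let-7 pool in each library. Each bar is 1 library (H, High diet; M, Moderate diet; the number is the replicate), and its coloured segments give each member's share of the summed units of the 10 members, in percent. let-7f and let-7a-5p fill most of every bar, with mean shares of 33.7% and 31.8%.

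The levels of let-7a-5p and let-7f relative to the other members carry an uncertainty that comes from reads shared between gene copies. In 19 libraries let-7a-5p had fractional reads, in steps of a read divided by 3, and in 13 libraries each let-7f and let-7a-3p had reads divided by 2, while the other 7 members were whole reads throughout. How reads shared by gene copies were divided was not given in the sources used here. With the values multiplied by these divisors (3 for let-7a-5p, 2 for let-7f and let-7a-3p), let-7a-5p would hold 48.3% of the pool, let-7f 34.1% and let-7i 6.82%. let-7a-5p would then stand above let-7f in every library, with a lowest share of 45.9% against a highest of 37.8% for let-7f. This choice moves shares and the order of let-7f and let-7a-5p, and leaves the fold change of a member between diets unchanged. Reads of members that differ by few bases can also be split between them by the counting, which these files do not show.

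No member of the family differed between the diets by the test. limma, fitted over 387 miRNAs, called 0 of the 10 members at an adjusted p under 0.05, where it called 19 miRNAs, or 4.91% of those tested. At an unadjusted p under 0.05 it found 0 of 10 members, against 21.2% of all miRNAs. edgeR and DESeq2 on recovered reads also called 0 of the 10, against backgrounds of 7.96% and 9.79%. Of the fold changes, 6 were above 0 and 4 below, with a median of 0.03 on the log2 scale, the same as the 0.03 over all miRNAs tested. Without Moderate replicate 5, the median was 0.033 for the members and 0.003 over all miRNAs tested. The median size of a member's log2 fold change, whatever its sign, was 0.05, against 0.12 over all miRNAs tested. These sizes are not matched for abundance. All members but let-7a-3p had a mean of at least 100 units. Without Moderate replicate 5, the median SD of log2 units within a diet was 0.25 over all miRNAs tested and 0.16 over those of at least 100 units. With 1 library per calf, the p-values measure the spread between calves together with that of the handling of each sample.

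let-7f is made by genes of both the let-7a-1 group and the HUWE1 locus. Its lowest, median and highest levels were 14954, 16831 and 19593 units in the High diet and 13374, 15632 and 27873 units in the Moderate diet. The ranges overlapped; 13 of 15 High libraries lay above the Moderate median, and the highest value of all was that of Moderate replicate 5. The means were 16847 ± 1273 and 16530 ± 3403 units, with a log2 fold change of 0.05 for High minus Moderate (95% confidence interval -0.10 to 0.19, limma adjusted p = 0.768). Without Moderate replicate 5, the Moderate mean was 15719 ± 1366 units and the log2 fold change of let-7f was 0.10 (0.01 to 0.19), with an unadjusted limma p of 0.0285 and an adjusted p of 0.124. It was then the 1 member of 10 under an unadjusted 0.05, where 29.9% of all miRNAs were. The adjusted test called 45 miRNAs without that library, 11.7% of those tested, and none of the members.

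let-7a-5p, the member whose sequence is that of the nematode let-7, was close to level between the diets. It ran from 14392 through a median of 15552 to 17351 units in the High diet and from 13714 through 14953 to 24221 units in the Moderate diet. The ranges overlapped, with 11 of 15 High libraries above the Moderate median. Its log2 fold change was 0.02 (-0.10 to 0.14, limma adjusted p = 0.843), and 0.07 (-0.00 to 0.14, adjusted p = 0.192) without Moderate replicate 5. let-7d, made from the same gene group as let-7a-1 and let-7f-1, ran from 286 through 335 to 377 units in the High diet and from 218 through 313 to 378 in the Moderate diet. Here 11 of 15 High libraries lay above the Moderate median, the ranges again overlapped, and the log2 fold change of let-7d was 0.07 (-0.05 to 0.20, limma adjusted p = 0.516). Its lowest value was that of Moderate replicate 5, without which the log2 fold change was 0.04 (-0.06 to 0.14).

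let-7a-3p showed the widest interval of the 10. It ran from 51.4 through a median of 57.4 to 64.1 units in the High diet and from 16.4 through 54.0 to 65.4 units in the Moderate diet. The value of 16.4 units is that of Moderate replicate 5, and 13 of 15 High libraries lay above the Moderate median. The log2 fold change of let-7a-3p was 0.20 (-0.05 to 0.44, limma adjusted p = 0.364), and it was 0.08 (-0.03 to 0.19, adjusted p = 0.329) without that library.

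let-7b, whose gene neighbours MIRLET7A-3, was among the steadiest members and nearly level between the diets. It ran from 3139 through 3419 to 3722 units in the High diet and from 3108 through 3422 to 4317 units in the Moderate diet. The medians almost coincided, and 7 of 15 High libraries lay above the Moderate one. The log2 fold change of let-7b was -0.04 (-0.13 to 0.05, limma adjusted p = 0.657), an interval that runs from -8.78% to 3.67%. It was -0.02 (-0.09 to 0.06) without Moderate replicate 5, which held the highest value.

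let-7i and let-7g are each made by a single gene that stands apart from the other family genes. let-7i ran from 5847 through 6334 to 7326 units in the High diet and from 5780 through 6708 to 7888 in the Moderate diet. Here 6 of 15 High libraries lay above the Moderate median, and the log2 fold change was -0.04 (-0.13 to 0.06, limma adjusted p = 0.683), and -0.05 without Moderate replicate 5. let-7g ran from 2578 through 2732 to 3073 units in the High diet and from 1904 through 2682 to 3107 in the Moderate diet. The ranges of both members overlapped between the diets. For let-7g, 9 of 15 High libraries lay above the Moderate median and the log2 fold change was 0.06 (-0.04 to 0.17, limma adjusted p = 0.476). It was 0.03 (-0.04 to 0.10) without Moderate replicate 5, the library with the value of 1904 units.

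let-7c and let-7e each come from a single gene that neighbours genes of the miR-99 and miR-125 families. let-7c ran from 1345 through 1687 to 2120 units in the High diet and from 1392 through 1694 to 2726 in the Moderate diet. let-7e ran from 779 through 848 to 981 units in the High diet and from 803 through 891 to 1770 in the Moderate diet. In both, the ranges overlapped and the highest value was that of Moderate replicate 5; 6 of 15 High libraries for let-7c and 5 of 15 for let-7e lay above the Moderate median. Their log2 fold changes were close to each other, -0.09 (-0.25 to 0.07, limma adjusted p = 0.531) for let-7c and -0.09 (-0.25 to 0.06, adjusted p = 0.505) for let-7e. Without Moderate replicate 5 they were -0.04 and -0.02.

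miR-98, which differs from the let-7 members in name but carries their seed, ran from 979 through 1189 to 1490 units in the High diet and from 933 through 1160 to 1909 in the Moderate diet. The ranges overlapped, with 9 of 15 High libraries above the Moderate median. Its log2 fold change was 0.03 (-0.13 to 0.19, limma adjusted p = 0.846). It was 0.08 (-0.04 to 0.21, adjusted p = 0.417) without Moderate replicate 5, which held the highest value.

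**Figure D2:**
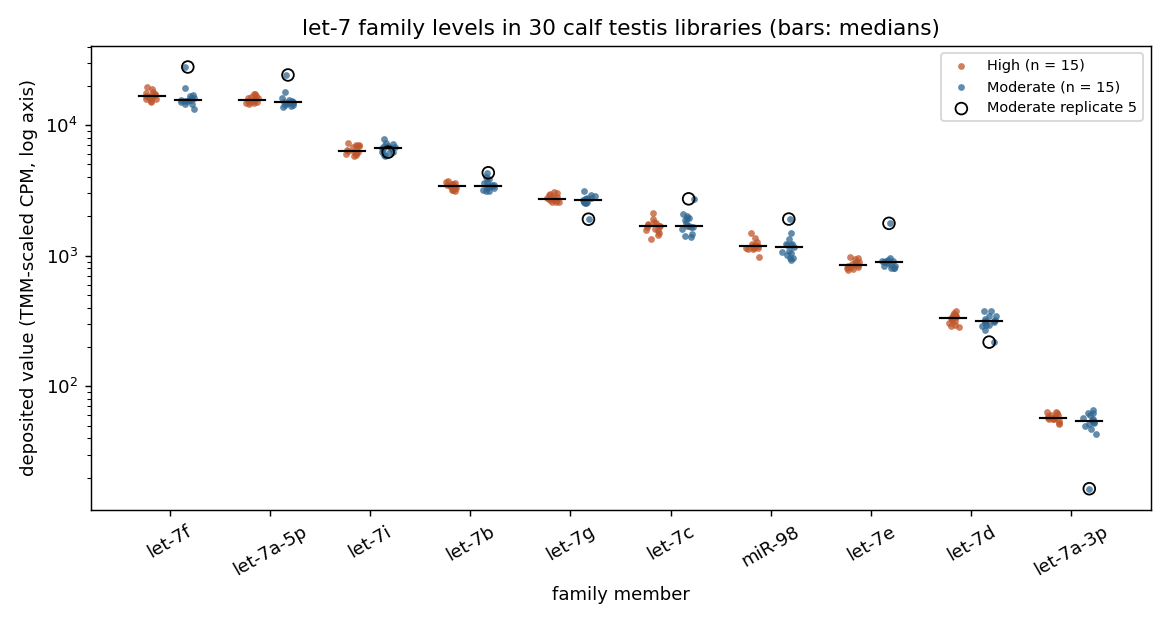
Level of each member in each of 30 libraries, in TMM-scaled CPM on a log axis, with 1 point per calf, the diets side by side and bars at the medians. The ranges of the diets overlap for all 10 members, and the ringed library, Moderate replicate 5, is the highest for let-7f at 27873 units and the lowest for let-7a-3p at 16.4 units.

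**Figure D3:**
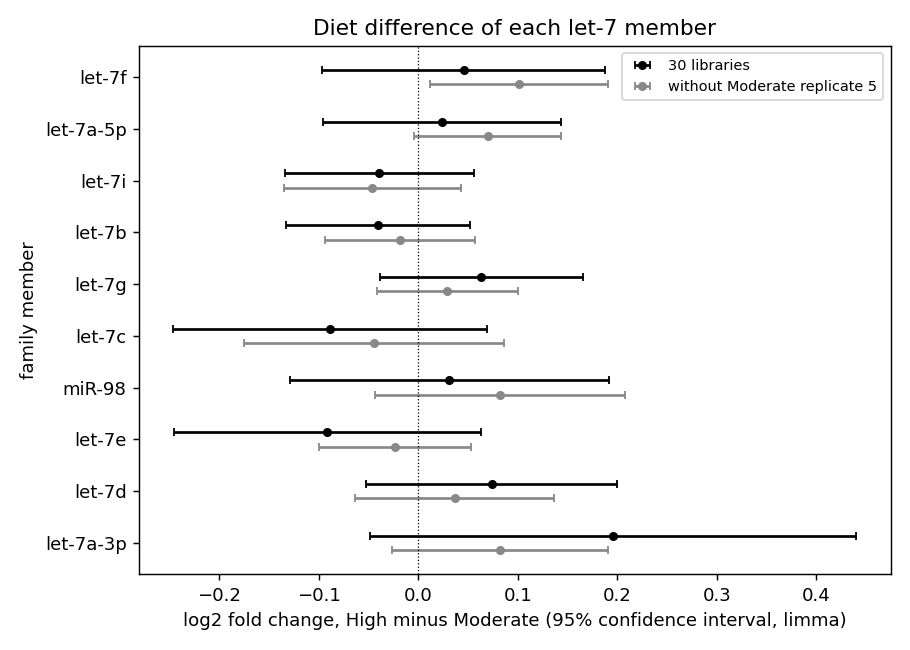
Log2 fold change of each member, High minus Moderate, with the 95% confidence interval of limma, in all 30 libraries and without Moderate replicate 5. With all libraries, every interval includes 0; without that library, the interval of let-7f, 0.01 to 0.19, does not.

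The choice of libraries, the label used for the diet and the scaling all bore on the direction of these small differences. In the 12 libraries with both labels alike, which include Moderate replicate 5, the log2 fold changes of let-7a-5p and let-7f were -0.10 and -0.06, and without that library they were 0.01 and 0.08. In the 18 libraries whose labels differ they were 0.11 and 0.12, grouped by the diet label. With the diet taken from the titles they were -0.11 and -0.10, and -0.06 and -0.05 without Moderate replicate 5. limma called 0 of the 10 members in each of these settings, where it called 0 of all miRNAs. Within the 24 libraries of lower depth, let-7f was at 0.07 and let-7a-5p at 0.04, and without Moderate replicate 5 they were at 0.13 (adjusted p = 0.0740) and 0.10, with 0 members called where 8.09% of all miRNAs were. Within the 6 of higher depth, where only 2 are Moderate, they were at -0.05 and -0.07, with 0 members called in either full range, where 0.779% and 0.504% of all miRNAs were. Scaling by library totals alone shifted the median of all miRNAs to 0.21, and put all 10 members above 0 with a median of 0.24. Without that library the shift was 0.07, the members' median was 0.10, and the lowest adjusted p of a member was 0.0704 (let-7f, limma), with 0 members called where 7.97% of all miRNAs were.

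In deposited units, the mean summed level of the family was alike in the diets over all 30 libraries, and higher in the High diet without Moderate replicate 5. The lowest, median and highest sums were 46248, 49003 and 53915 units in the High diet and 45080, 46802 and 71166 units in the Moderate diet. The ranges overlapped, the highest sum was that of Moderate replicate 5, and 13 of 15 High libraries lay above the Moderate median. The means were 49399 ± 2539 and 49301 ± 6631 units, and the Moderate mean was 47739 ± 2820 units without that library. As a share of all reads counted to miRNAs, the family held 5.33% ± 0.527 in the High diet and 4.69% ± 0.955 in the Moderate diet. Moderate replicate 5 had the lowest share at 1.68%, and the other 14 Moderate libraries were at 4.91% ± 0.487.

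Shares within the pool do not depend on how a library is scaled, and they moved by little between the diets. let-7f held 34.1% of the pool in the High diet and 33.3% in the Moderate diet, a difference of 0.758 percentage points with a standard error of 0.672. let-7i held 13.2% and 13.7%, a difference of -0.549 points with a standard error of 0.514, and 2 of 15 High libraries lay above the Moderate median of its share. let-7b held 6.91% and 7.17%, a difference of -0.266 points with a standard error of 0.148, with 3 of 15 High libraries above the Moderate median. Leaving out Moderate replicate 5 raised these differences to 1.18 (standard error 0.549) points for let-7f, -0.904 (0.386) for let-7i and -0.345 (0.132) for let-7b. Shares of 1 pool are tied to each other, and no test was run on them. let-7e held 1.75% and 1.88%, a difference of -0.132 points with a standard error of 0.0616, and of -0.0885 (0.0448) points without that library; 4 of 15 High libraries lay above the Moderate median. The remaining 6 members differed by at most 0.434 points in size, with or without it.

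The members differed in how much they varied between calves of the same diet. Over the 29 libraries without Moderate replicate 5, the SD of log2 units within a diet was 0.08 for let-7g, 0.09 for let-7a-5p, let-7b and let-7e, and 0.11 for let-7f and let-7i. Of the 120 miRNAs with a mean of at least 100 units, 2 varied less than let-7g, 4 less than let-7a-5p, 6 less than let-7b and 7 less than let-7e; the median of those 120 was 0.16. let-7c, at 0.18, and miR-98, at 0.17, varied more than that median. let-7d was at 0.13. These SDs depend on abundance and are given as a description.

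Moderate replicate 5 split the family. let-7e was 2.07 times the median of the other 29 libraries there, let-7f 1.72 times, miR-98 1.64 times, let-7c 1.62 times, let-7a-5p 1.60 times and let-7b 1.26 times. These 6 members stood above every other library. let-7g, at 0.704 times, let-7d, at 0.672 times, and let-7a-3p, at 0.291 times, stood below every other library, and let-7i, at 0.930 times, lay within their range. Counted as CPM of all reads, without TMM, all 10 members were below every other library, with let-7f at 6598 against 13481 to 24022 CPM. The direction of the higher members there thus turns with the scaling. Of the 6 neighbours, miR-99b (3215 against 1419 to 3547 CPM) and miR-100 (874 against 643 to 2250 CPM) lay within the range of the other libraries on that scale, and the other 4 lay below it. Ratios between members do not depend on scaling. The log2 ratio of let-7a-3p to let-7a-5p was -10.53 in Moderate replicate 5 and -8.50 to -7.78 in the others, and the log2 ratio of let-7d to let-7a-5p was -6.80 against -5.89 to -5.28. Of 10 lists of cell-type markers, the sum for red blood cells (miR-451, miR-144 and miR-486) was 7927 units there, against 755 to 3606 in the other libraries. The sums for meiotic or later germ cells (miR-34b, miR-34c and miR-449a; 21.9 against 40.5 to 265), gonadal somatic cells (miR-202; 1055 against 1568 to 3282), endothelium (miR-126, both arms; 5125 against 8981 to 14721) and striated muscle (3.33 against 11.7 to 22.2, with miR-1 and miR-206 at 0 in every library) were below every other library. The sums for smooth muscle, leukocytes, epithelium, neurons and liver lay within the range of the others. These are TMM-scaled sums too. As CPM of all reads, the sum for red blood cells was 1877 against 760 to 4421 and that for liver was 0.113 against 0 to 3.07, both within the range of the others, and the sums of the other 8 lists were below every other library. The part of these cell types in the split was not tested.

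**Figure D4:**
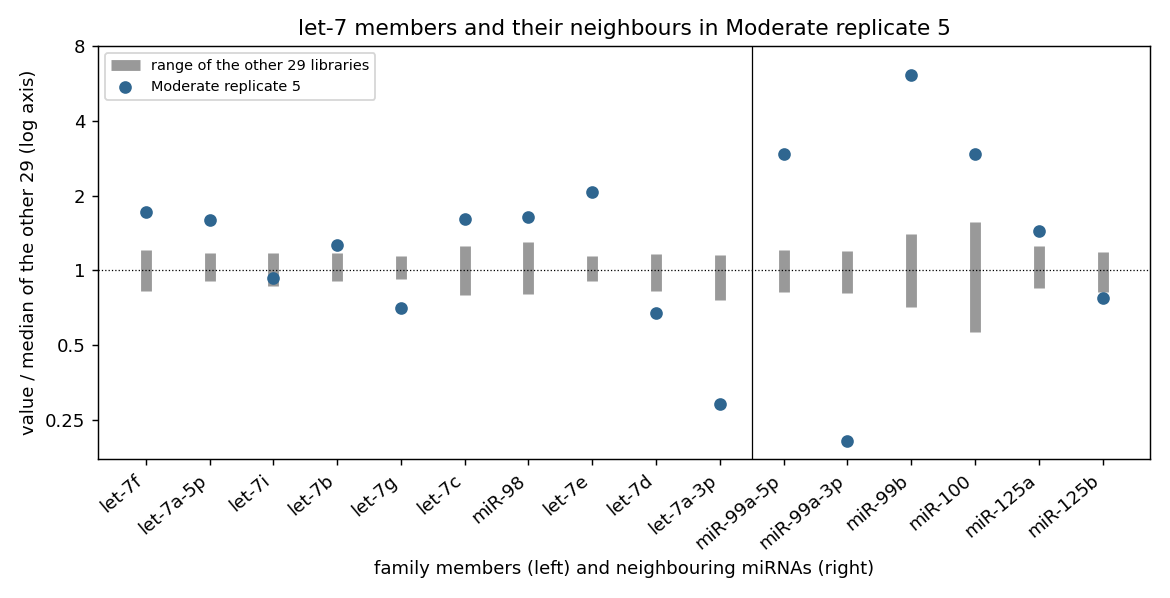
Value in Moderate replicate 5 divided by the median of the other 29 libraries, on a log axis, for the 10 members (left) and 6 miRNAs from neighbouring genes (right). Grey bars give the range of the other 29 libraries; 6 members lie above their bar, let-7i within it and 3 below, and miR-99b is the highest at 6.12 times on this scale; as CPM of all reads, it lies within the range of the others.

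The miRNAs encoded beside let-7 genes did not pass the test for diet either. limma called 0 of 6 (miR-99a-5p, miR-99a-3p, miR-99b, miR-100, miR-125a and miR-125b), against the 4.91% over all miRNAs. miR-125a, known for its conservation with the nematode lin-4, came closest. Its lowest, median and highest levels were 2531, 2936 and 3098 units in the High diet and 2650, 3146 and 4288 units in the Moderate diet. The ranges overlapped, although 15 of 15 High values were under the Moderate median. The log2 fold change of miR-125a was -0.12 (-0.23 to -0.00), with an unadjusted limma p of 0.0433 and an adjusted p of 0.211. It was -0.09 without Moderate replicate 5 and 0.09 with library totals. miR-99b, with means of 2170 ± 312 units in the High diet and 3064 ± 2942 units in the Moderate diet, was at 13582 units in Moderate replicate 5 and at 1577 to 3101 units in the other 29 libraries; as CPM of all reads its 3215 in that library lay within the range of the others. Its log2 fold change was -0.25 with that library (limma adjusted p = 0.445) and -0.08 without it. miR-99a-5p was at -0.18 and -0.08, miR-100 at 0.07 and 0.19, miR-99a-3p at 0.06 and -0.09, and miR-125b at 0.03 and 0.00 on the log2 scale, with and without it.

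Whether a member moves with its neighbouring genes across calves was examined in 18 pairs of miRNAs with genes within 50 kb of each other. For let-7a-3p all 3 let-7a genes were used, although its fractional reads were divided by 2. Which of those genes give let-7a-3p was not examined. A pair was counted where both Pearson's r and Spearman's rho passed a permutation test (100000 resamples, adjusted over the 18 pairs, threshold 0.05). All 30 libraries gave 3 such pairs. They were let-7a-5p with let-7f (r = 0.86, rho = 0.68), let-7f with miR-98 (r = 0.79, rho = 0.64) and let-7a-5p with let-7b (r = 0.73, rho = 0.60), with adjusted permutation p for rho of 0.00144, 0.00171 and 0.00402. Without the 2 libraries farthest from the median of the first member, r was 0.60, 0.59 and 0.46. Within the High diet r was 0.66, 0.59 and 0.71, and within the 14 Moderate libraries without replicate 5 it was 0.54, 0.63 and 0.64. In the 23 libraries of lower depth without that library r was 0.57, 0.64 and 0.46, and in the 6 of higher depth it was 0.94, 0.78 and 0.83. These pairs share the scaling of the library and may share reads. Pairs of miRNAs encoded farther apart were not examined, so the counts cannot show whether neighbours move together more than other miRNAs do.

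On the TMM scale, pairs with the miR-99 and miR-125 genes depended more on Moderate replicate 5. let-7c with miR-99a-3p had r = -0.41 and rho = 0.46 in 30 libraries, and r = 0.66 and rho = 0.61 without that library (adjusted permutation p for rho 0.00384), which made it the fourth pair to pass. let-7c with miR-99a-5p, the other arm of the same precursor, had rho = 0.25 without it (adjusted permutation p 0.422). let-7e with miR-99b had r = 0.77 in 30 libraries and rho = 0.00; without Moderate replicate 5, r was -0.18 and rho -0.11. let-7e with miR-125a fell in the same way, from r = 0.55 to -0.02. let-7a-3p and let-7a-5p, arms of let-7a precursors, had r = -0.76 and rho = -0.19 in 30 libraries. Without Moderate replicate 5 these were -0.12 and -0.10. The scaling mattered too: with library totals over the 30 libraries, 16 of the 18 pairs passed. There rho was 0.651 for let-7a-3p with let-7a-5p, 0.584 for let-7c with miR-99a-5p and 0.505 for let-7e with miR-125a. For let-7e with miR-99b it was 0.198, and that pair did not pass.

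**Figure D5:**
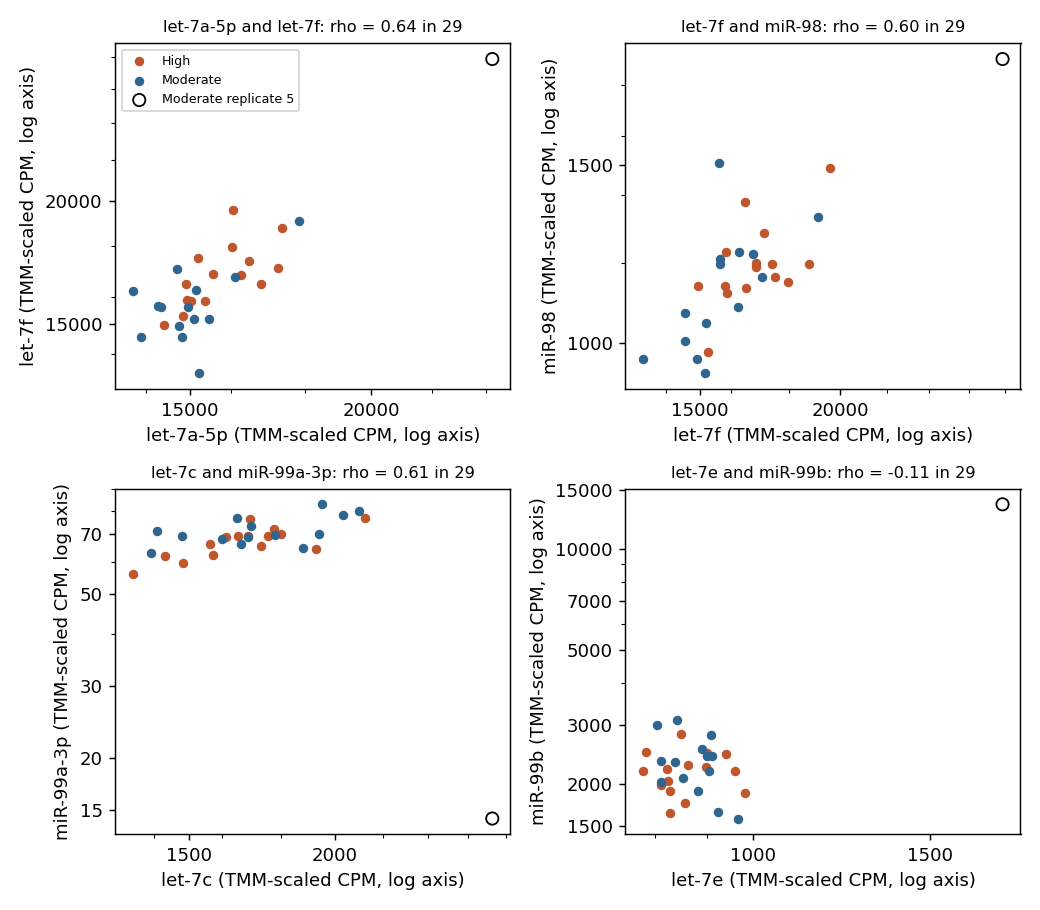
Levels of 4 pairs of miRNAs from neighbouring genes, in TMM-scaled CPM on log axes, with 1 point per library coloured by diet and Moderate replicate 5 ringed; the rho in each title is over the other 29 libraries. let-7a-5p and let-7f rise together at rho = 0.64, while let-7e and miR-99b, at -0.11, are joined only by the ringed library.

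Outside the family, the 5 miRNAs whose levels ran most alike with the summed let-7 level over the 30 libraries were miR-146b (rho = 0.594), miR-6522 (0.588), miR-421 (0.528), miR-328 (0.523) and miR-7859 (0.516), out of 377 compared. The 5 running most against it were miR-484 (rho = -0.647), miR-335 (-0.617), miR-376c (-0.598), miR-6524 (-0.597) and miR-200b (-0.597). Of these, miR-7859, miR-376c and miR-200b had means of only 1.37, 1.49 and 1.42 units. Pearson's r had the same sign for all 10, from -0.840 for miR-6524 to 0.665 for miR-6522. They were picked as the extremes of the ranking, so no p is given for them. Without the 2 libraries farthest from the median of the summed level, r was 0.673 for miR-146b and -0.603 for miR-484. Without Moderate replicate 5, rho was 0.552 for miR-146b and -0.609 for miR-484. In the 24 libraries of lower depth it was 0.733 and -0.769, and in the 6 of higher depth 0.143 and -0.143.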

How the data were processed

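Per the labels' protocols, testis RNA (Qiagen RNeasy Plus Universal) went into Illumina TruSeq small RNA libraries. The submitters' processing notes name FastQC 0.11.8, cutadapt 2.6, R 3.4 and edgeR 3.5. Aligner, miRNA reference and build were not given in the sources used here. All deposited values are a normalized signal, TMM-scaled CPM, worked out from the values: dividing each column by what 1 read is worth gave whole reads for 95.3% of 18379 values, within 0.02 read. Values in fractions belonged to 58 miRNAs.

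Diets were compared by limma-trend (limma 3.58.1) on log2(value + 0.5) with no term but diet, over 387 miRNAs at 1 unit or more in at least 15 libraries, two-sided, with Benjamini-Hochberg adjustment and a threshold of 0.05. This scale understates changes of low miRNAs. edgeR 4.0.16 (quasi-likelihood) called 30 of 377 and DESeq2 1.42.0 called 47 of 480 miRNAs on the recovered reads, in R 4.3.3. A count of 0 (limit 3 reads) allows 0.138 to 1.43 units, for counting error only. Members, neighbour miRNAs and the rule for named miRNAs (all members, all tested neighbours, and the 5 highest and 5 lowest correlations with the summed level) were chosen with earlier results of these data known. Gene positions relative to each other come from the RefSeq table of ARS-UCD2.0. Alternatives were other pseudocounts, filters, scalings, count models, diet labels, depth ranges and each library left out.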

Additional observations from a re-analysis of the deposited data

Results flagged for a closer look

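In 44 sets of values (each member in the High or Moderate libraries whose labels are alike or differ, and sums of the members), 4 had an extreme library far from the others by Dixon's test, where chance flags about 1 set in 20, or 2.2 of the 44. Moderate replicate 5 gave 2 of them: let-7e at 1770 units, the highest of 6 Moderate libraries with labels alike, the others being at 803 to 966, and let-7a-3p at 16.4 units, the lowest of the same 6, the others being at 49.3 to 62.3. miR-98 in High replicate 6, at 979 units, was the lowest of 6 High libraries with labels alike, the others being at 1121 to 1189. let-7c in High replicate 9, at 2120 units, was the highest of 9 High libraries with labels that differ, the others being at 1483 to 1800. What sets these libraries apart was not tested.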

How the results depend on the processing

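In 50 alternative fits, 0 of 10 members and 0 of 6 neighbours passed an adjusted p of 0.05. At an unadjusted limma p under 0.05, the most members found was 3 of 10. That was with library totals and without Moderate replicate 5, where 108 of 389 miRNAs were under it. No paired analysis was possible because the labels give no replicate numbers that calves of both diets share. Over all miRNAs, the 19 calls became 0 with no filter, with library totals, with titles (with or without Moderate replicate 5), in the 12 libraries with labels alike (likewise) and in the 18 with labels that differ; 30 with edgeR; 47 with DESeq2; 3 under and 2 above 12 M reads; and 31, 31, 47 and 60 under 12 M reads, with library totals, edgeR and DESeq2, each without Moderate replicate 5. Leaving out 1 library gave 0 (High replicate 5) to 45 (Moderate replicate 5) calls. The cause was not tested.

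Log2 fold changes that turned sign follow. With edgeR: let-7a-5p -0.0344, let-7f -0.0218, miR-98 -0.0346, miR-99a-3p -0.0307, miR-100 -0.101 and miR-125b -0.0016. With DESeq2: let-7a-5p -0.0115, miR-98 -0.0114, miR-99a-3p -0.018 and miR-100 -0.0765. With library totals: let-7b 0.172, let-7c 0.123, let-7e 0.121, let-7i 0.173, miR-99a-5p 0.0314 and miR-125a 0.0936. With totals and without Moderate replicate 5: let-7b 0.0526, let-7c 0.027, let-7e 0.0479, let-7i 0.0252 and miR-99a-3p -0.022. With titles: let-7a-5p -0.106, let-7f -0.0976, let-7g -0.002, let-7i 0.0331, miR-98 -0.0941 and miR-100 -0.0632. In the 12 libraries: let-7a-5p -0.102, let-7f -0.0649 and miR-98 -0.0785. Without Moderate replicate 5, the 11 left gave let-7a-5p 0.0127, let-7f 0.0758 and miR-98 0.0594, with let-7d -0.0005, let-7g -0.012 and miR-99a-3p -0.0793 turned. The titles without it gave let-7a-3p -0.0324, let-7a-5p -0.0641, let-7c 0.0151, let-7d -0.0385, let-7f -0.0473, let-7g -0.0383, let-7i 0.0286, miR-98 -0.048, miR-99a-5p 0.0156 and miR-125a 0.0091. Under 12 M reads without it: let-7b 0.0054, let-7c 0.0153, let-7d -0.0011 and miR-99a-3p -0.0787. In the 18: let-7b 0.0282, let-7e 0.0171, miR-99a-3p -0.0951 and miR-125b -0.0118. At 12 M reads or more: let-7a-5p -0.0719, let-7f -0.0508, let-7g -0.129, miR-99a-3p -0.0774 and miR-99b 0.171. Leaving out 1 library gave miR-99a-3p -0.0928 (Moderate replicate 5) to 0.0855, and without Moderate replicate 5 it was -0.0822 with edgeR and -0.0852 with DESeq2.

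With values multiplied by gene divisors, shares were 48.3% for let-7a-5p, 6.82% for let-7i, 3.57% for let-7b, 2.81% for let-7g, 1.78% for let-7c, 1.22% for miR-98, 0.918% for let-7e and 0.334% for let-7d. The log2 ratio of High to Moderate sums, 0.0029 in units, was 0.186 as a share of reads, 0.185 without miR-98 and let-7a-3p, 0.228 under 12 M reads and 0.262 in the 12 libraries. Without Moderate replicate 5 these shares gave 0.121, 0.153 (under 12 M reads) and 0.0966 (the 12), and at 12 M reads or more 0.0282. In units the ratio was -0.101 in the 12 libraries, 0.0118 without Moderate replicate 5 there, and -0.0731 at 12 M reads or more. Library totals gave 16 correlated pairs of 18, and rho of let-7a-3p of 0.651 with let-7a-5p, 0.565 with let-7b, 0.675 with let-7f and 0.521 with miR-100. Without Moderate replicate 5, rho was 0.0591 for let-7a-3p with let-7f, -0.000493 with miR-125b, and -0.106 for let-7e with miR-99b. let-7a-3p had as few as 34.5 reads in a library.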
